A study of Mus musculus with 2 samples.

Results

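The acrosome and zona binding genes were 10 genes chosen by name, Acr, Acrbp, Acrv1, Spaca1, Spaca3, Spaca4, Zpbp, Zpbp2, Izumo1 and Spesp1, out of 36547 genes listed in either of 2 single-cell count tables. All 10 were listed in both tables. The rule that names them uses no measured value, though they were named with earlier results of these data known. The tables came from testes of 12-week-old C57BL/6 mice, 1 library from wild-type (WT) animals and 1 from Alkbh5-/- (KO) animals bred from heterozygous parents. Alkbh5 encodes the demethylase that removes N6-methyladenosine from RNA, and the comparison asked how its absence alters the transcriptomes of testis cells. Unique molecular identifiers (UMIs, tags that count captured RNA molecules once) were counted per gene and cell. The sources name either 1 mouse or pooled testes of several mice per genotype, so each genotype is 1 library with no replicate, and no test between genotypes was possible.

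The acrosome is a secretory vesicle that grows from the Golgi apparatus of the round spermatid and spreads as a cap over the nucleus. Its enzymes and binding proteins are stored until the sperm meets the zona pellucida, the glycoprotein coat of the egg, and its inner membrane and equatorial segment carry the proteins of sperm and egg fusion. The 10 genes fall into 4 roles. Acr and Acrbp encode the protease acrosin and the protein that binds its precursor, Zpbp, Zpbp2 and Spaca4 encode zona-binding proteins, Acrv1, Spaca1 and Spaca3 encode proteins of the vesicle and its membrane, and Spesp1 and Izumo1 act at the equatorial segment, Izumo1 as the sperm ligand for fusion with the egg.

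RefSeq promoter windows (GRCm38.p6) were at hand for 9 of the 10 genes, Acr being the exception. The 250 bases before each start were searched on both strands for TGACG, the half-site of the cAMP response element (CRE) that CREM-type activators of spermatid genes recognise. It was found in 5 of the 9 genes, Acrbp, Izumo1, Spaca1, Spaca3 and Zpbp2, and in 19.8% of the 27025 genes with a window. Of those 5, only Izumo1 held the full palindrome TGACGTCA, which includes the half-site on both strands and was present in 1.77% of all genes. The SOX core ACAAT was found in Acrv1 only, the MYB core AACGG in Spesp1 and Zpbp, the RFX half-site GTTGCC in Acrbp and Spesp1, and TATAAA in none, against 30.9%, 16.5%, 11.8% and 14.3% of all genes. The 3 windows printed here belong to genes of different timing described next, and CRE half-sites are in capitals: Izumo1 at chr7:45621561-45621810 (+ strand), Spaca3 at chr11:80858113-80858362 (+ strand) and Zpbp2 at chr11:98550847-98551096 (+ strand).
Izumo1: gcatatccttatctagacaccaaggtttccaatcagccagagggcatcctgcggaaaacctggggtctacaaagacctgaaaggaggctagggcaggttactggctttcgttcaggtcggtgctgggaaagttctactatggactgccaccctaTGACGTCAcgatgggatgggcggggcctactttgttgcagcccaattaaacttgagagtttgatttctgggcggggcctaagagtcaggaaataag
Spaca3: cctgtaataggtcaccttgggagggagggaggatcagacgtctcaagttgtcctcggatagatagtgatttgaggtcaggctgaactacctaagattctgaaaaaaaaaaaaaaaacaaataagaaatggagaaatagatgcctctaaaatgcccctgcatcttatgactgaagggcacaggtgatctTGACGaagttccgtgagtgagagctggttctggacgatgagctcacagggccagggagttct
Zpbp2: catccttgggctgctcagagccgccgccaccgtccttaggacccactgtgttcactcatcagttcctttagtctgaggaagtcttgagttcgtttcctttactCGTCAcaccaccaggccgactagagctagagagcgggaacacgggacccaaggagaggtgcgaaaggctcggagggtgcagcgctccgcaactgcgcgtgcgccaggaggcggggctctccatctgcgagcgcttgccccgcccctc
In these windows the Izumo1 palindrome began 96 bases before the start, the Spaca3 half-site 62 bases before it, and the Zpbp2 half-site, on the opposite strand, 147 bases before it. A match describes the letters only.

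There were 5756 cell barcodes with 80283221 UMIs from WT and 7012 with 82056760 from KO, with medians of 10906 and 9118 UMIs per barcode and 45 barcodes common to both. Alkbh5 itself had 607 UMIs in the WT library and 5 in the KO library. Clustering both libraries together gave 11 clusters that ran from late spermatocytes to the most condensed cells. They were numbered in that order and are called here by their leading genes: P1 (led by Piwil1) and P2 (Pabpc6) carried late spermatocyte markers, R1 (Ssxb1), R2 (Ssxb2), R3 (Slc39a12), R4 (Cd46) and R5 (Fam71b) round spermatid markers, and S1 (Prss58), S2 (Tnp2), S3 (Prm1) and S4 (Spem1) sperm markers. R1 to R5 and S1 to S4 together made up 4657 WT and 3422 KO spermatids, of which 2404 and 1311 were sperm-like (S1 to S4). Of the 10 genes, 7 were among the features used for clustering. Without any acrosome gene among the features, 98.4% of the spermatids kept their class, round spermatid or sperm-like. The single stages were not checked in this way. That clustering held 1 cluster of 1550 cells led by Ssxb1 and Ssxb2, which were leading genes of both R1 and R2. Levels are UMIs per 1000000 of all UMIs in the cells summed (CPM), and 95% intervals are exact and cover counting error only. A UMI library of this kind reads transcript ends, so levels are compared between cells and not between genes.

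The 10 genes switched on in 2 waves, and all were down by the end of the round spermatid stages. Acr, Acrbp, Zpbp, Zpbp2 and Spesp1 were already transcribed in late spermatocytes: at P1 they stood at 50.7 to 65.9% of their own highest level in the WT library and at 44.9 to 58.9% in the KO library. Acrv1, Spaca1, Spaca3, Spaca4 and Izumo1 stood at 0.948 to 1.50% of their highest level at P1 in WT and at 0.630 to 1.02% in KO, and rose from P2 to R1 by 8.26-fold (Spaca1) to 19.6-fold (Spaca3) in WT and by 7.80-fold to 15.8-fold for the same genes in KO. Between R4 and R5 all 10 fell in both libraries, from 2.48-fold (Acrbp) to 77.7-fold (Spaca1) in WT and from 1.77-fold to 87.9-fold in KO. The first wave was partly down before that step, Zpbp2, Acrbp and Spesp1 most. These groups were formed from the levels themselves, so the contrast between them is a description. Across the 26 germ cell groups of both libraries (13 stages in each), Pearson's r between 2 genes of the same wave was 0.88 to 0.99 for the first and 0.91 to 0.99 for the second, and 0.40 to 0.78 between waves, where the points share libraries and cell order.

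**Figure D1:**
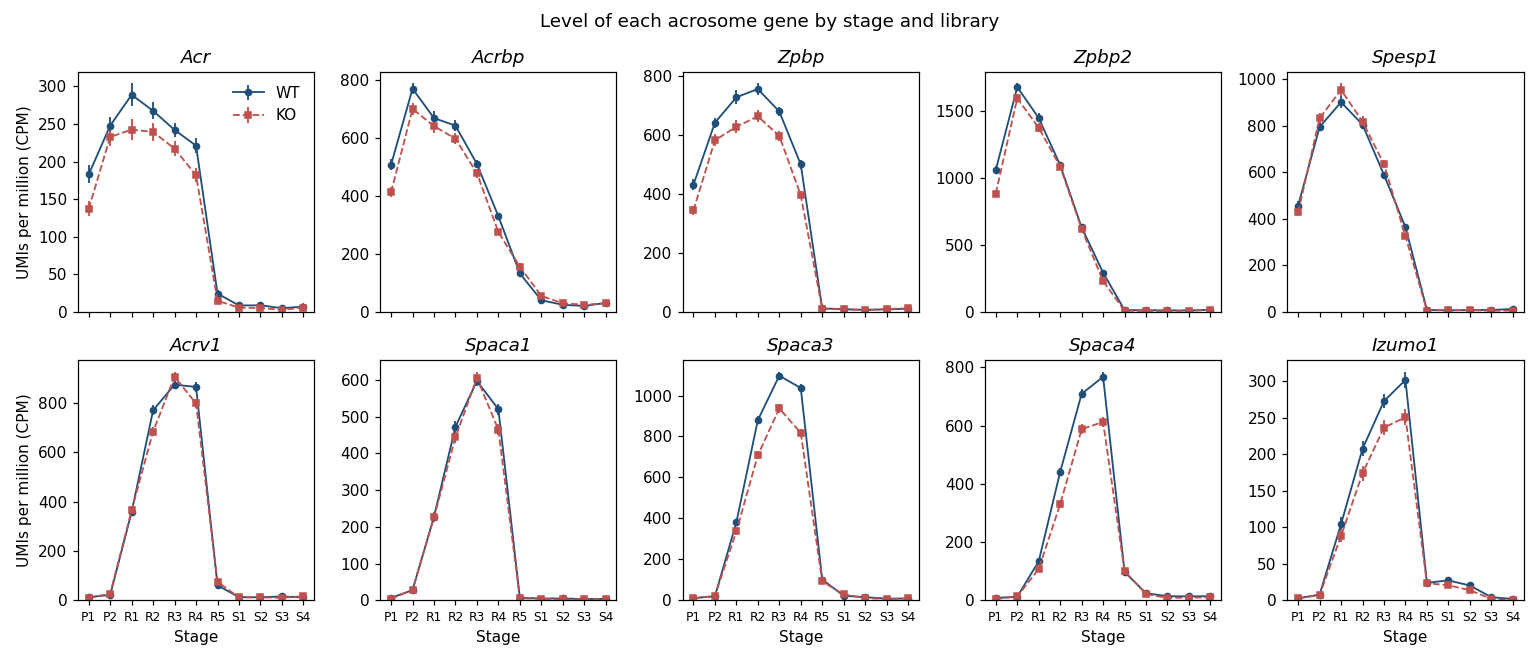
Level of each gene (CPM, linear axis from 0) at the 11 stages in the WT library (circles, solid) and the KO library (squares, dashed), with exact 95% counting intervals. The upper row holds the genes already transcribed at P1, the lower row those that rose at R1, and all 10 are close to 0 from S1 on.

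Acr encodes acrosin, a trypsin-like protease stored as proacrosin (ENSMUSG00000022622.5, chr15:89568326-89574585 on the + strand in GENCODE M21, GRCm38). Its WT levels from P1 to S4 were 183, 248, 289, 268, 242, 221, 24.5, 8.65, 8.89, 5.06 and 7.05 CPM. The KO levels in the same order were 137, 233, 243, 239, 217, 182, 14.99, 5.72, 5.34, 2.84 and 5.90 CPM. Acr thus had a flat plateau from P2 to R4 with its highest value at R1 in both libraries, where the interval of R2 overlapped it. Summed over round spermatids the KO level was 187 against 218 CPM, a log2 ratio of -0.22 (95% interval -0.27 to -0.17).

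Acrbp, whose product binds proacrosin and helps pack it into the granule, lies at chr6:125049689-125063267 (+ strand, ENSMUSG00000072770.9), where the annotation also places an antisense transcript and a same-strand transcript. In WT its levels ran 507, 768, 667, 641, 509, 329, 133, 40.3, 24.7, 20.7 and 31.2 CPM from P1 to S4. In KO they ran 412, 699, 640, 596, 477, 275, 156, 55.3, 29.8, 25.1 and 29.5 CPM. Acrbp was highest at P2. At R5 it kept 17.3% of its highest WT level and 22.3% of its highest KO level, the highest shares of the 10. It was lower in KO up to R4 and higher from R5 to S3, with log2 ratios of -0.26 (-0.34 to -0.18) at R4 and 0.46 (0.22 to 0.69) at S1. Over round spermatids the ratio was -0.11 (-0.14 to -0.08).

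Zpbp and Zpbp2 encode a pair of related zona pellucida binding proteins of the acrosomal matrix, needed for a normally shaped sperm head. Zpbp (ENSMUSG00000020193.3, chr11:11279626-11462408, - strand, overlapped on the other strand by Spata48) had WT levels of 432, 642, 729, 757, 681, 501, 12.2, 9.50, 7.06, 8.70 and 10.9 CPM from P1 to S4. Its KO levels were 344, 583, 629, 664, 598, 397, 10.98, 8.66, 6.79, 10.5 and 11.8 CPM. Zpbp was highest at R2 in both libraries, where the interval of R1 overlapped it, and was lower in KO at every stage from P1 to R4. Zpbp2 (ENSMUSG00000017195.15, chr11:98551097-98558665, + strand) ran earlier: its WT levels were 1061, 1681, 1451, 1098, 633, 293, 14.1, 12.6, 12.0, 10.9 and 16.3 CPM. KO levels of Zpbp2 were 885, 1598, 1377, 1087, 621, 232, 8.65, 7.80, 6.79, 8.92 and 15.2 CPM. The paralogs thus parted in time, Zpbp2 being highest at P2 and already down at R4 while Zpbp held 501 CPM in WT. Over round spermatids the KO to WT log2 ratio was -0.24 (-0.27 to -0.21) for Zpbp and -0.07 (-0.10 to -0.04) for Zpbp2.

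Spesp1 encodes a protein of the equatorial segment, the band of the acrosome that persists after the acrosome reaction (ENSMUSG00000046846.4, chr9:62270729-62282208, - strand). From P1 to S4 its WT levels were 457, 795, 901, 805, 589, 365, 8.98, 6.81, 8.04, 8.70 and 12.9 CPM. The matching KO levels were 429, 833, 954, 818, 635, 326, 6.12, 8.66, 7.52, 5.67 and 5.90 CPM. Both libraries peaked at R1, and KO was the higher from P2 to R3 and the lower at R4. Its ratio over round spermatids, 0.02 (-0.01 to 0.05), was the highest of the 10.

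Acrv1, of the second wave, is the gene of the acrosomal vesicle protein SP-10 (ENSMUSG00000032110.4, chr9:36693220-36698843, + strand). WT levels of Acrv1 were 13.2, 21.5, 359, 772, 875, 866, 60.8, 12.9, 12.3, 15.7 and 11.5 CPM. KO levels were 9.16, 27.0, 366, 685, 908, 799, 74.7, 11.6, 11.9, 10.1 and 16.8 CPM. R3 was the highest stage in both, and in WT R4 could not be told from it by the counting intervals. Over round spermatids the log2 ratio was -0.08 (-0.10 to -0.05).

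Spaca1, an inner acrosomal membrane protein required for the vesicle to take its shape, is annotated at chr4:34024874-34050191 (- strand, ENSMUSG00000028264.16). It had WT levels of 6.68, 27.6, 228, 472, 597, 520, 6.69, 4.82, 5.08, 3.32 and 3.83 CPM. Its KO levels were 3.81, 28.9, 225, 444, 605, 464, 5.28, 4.33, 2.67, 2.84 and 3.37 CPM. Spaca1 closed more sharply than any other of the 10 between R4 and R5, and its ratio over round spermatids was -0.09 (-0.13 to -0.06).

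Spaca3 encodes a lysozyme-like protein of the acrosomal matrix (ENSMUSG00000053184.15, chr11:80858365-80867814, + strand). Across the stages its WT levels were 11.1, 19.4, 380, 879, 1097, 1037, 101, 22.3, 15.2, 8.07 and 8.66 CPM. KO levels of Spaca3 were 9.54, 21.3, 337, 708, 937, 818, 92.2, 28.4, 10.7, 6.08 and 9.26 CPM. The 2 libraries shared the R3 peak, but KO was lower at every stage from R1 to R4, and over round spermatids by a log2 ratio of -0.30 (-0.33 to -0.28).

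Spaca4, a membrane-anchored Ly6-type protein that takes part in zona binding, is a short gene inside Fam83e, which lies on the other strand (ENSMUSG00000070563.6, chr7:45725107-45725813, - strand). Its levels in WT were 8.21, 12.2, 134, 441, 710, 768, 97.1, 24.4, 13.8, 13.4 and 14.1 CPM. In KO they were 4.20, 13.4, 107, 330, 588, 613, 100.5, 21.3, 8.01, 9.32 and 10.1 CPM. At R1 Spaca4 stood at 17.5% of its peak in both libraries, the lowest share of the second wave. It was highest at R4, where in KO the interval of R3 overlapped it. It had the lowest ratio of the 10 over round spermatids, -0.34 (-0.37 to -0.30), and the KO level was below WT at each of R1 to R4.

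Izumo1, whose product binds the egg receptor Juno before membrane fusion, is annotated at chr7:45621811-45628823 (+ strand, ENSMUSG00000064158.6), overlapped on the same strand by Rasip1. WT levels were 2.86, 7.70, 104, 208, 273, 302, 24.1, 27.2, 20.3, 4.27 and 1.81 CPM. The KO library gave 2.48, 7.40, 88.2, 174, 237, 251, 23.4, 20.6, 13.8, 2.03 and 0 CPM, the last from 0 of 1187339 UMIs. A set limit of 3 UMIs, which is not the exact interval, would be 2.53 CPM there. Like Spaca4, Izumo1 was highest at R4 in both libraries, though for each gene the interval of R3 overlapped that of R4 in KO. Izumo1 kept 9.02% of its WT peak and 8.21% of its KO peak in the sperm-like stage where it was highest, the highest shares of the 10. Over round spermatids its log2 ratio was -0.26 (-0.31 to -0.21).

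Part of the low values must be read against RNA found in cells that should not make these transcripts. In Leydig-like cells, the steroid-producing cells between the tubules, the WT levels were 34.7 (Acr) to 138 CPM (Spaca3), which for 9 of the genes was 10.3 to 12.8% of their highest level and for Zpbp2 7.28%. In KO they were 8.08 (Izumo1) to 50.1 CPM (Zpbp2), or 2.37 to 4.49%. The WT library had 94 Leydig-like cells with a median of 10004 UMIs and the KO library 1171 with a median of 7872. At P1 the 5 genes of the second wave lay below the Leydig-like level of the same library, and so did all 10 in WT at S1 to S4. In KO, 3 genes passed it in a sperm-like stage: Acrbp with 29.5 to 55.3 CPM at S1, S2 and S4 against 26.6 CPM, Izumo1 with 20.6 and 13.8 CPM at S1 and S2 against 8.08 CPM, and Spaca4 with 21.3 CPM at S1 against 14.5 CPM. Levels under the Leydig-like level were therefore read as possible background only. That level is no floor measured in spermatids, as WT sperm-like levels lay far below it: Spaca1 reached 5.08 CPM at most against 76.2 CPM. It was also lower in KO than in WT for all 10 genes, so passing it in KO alone is not by itself a difference between the spermatids. At R5 Spaca3 stood at 9.23% of its peak in WT and 9.85% in KO, against 12.6% and 3.25% in Leydig-like cells. Acrbp at R5 lay above the Leydig-like level in both libraries, and Acrv1, Spaca3, Izumo1 and Acr only in KO. Spaca4 at R5 passed it clearly in KO, while its WT level of 97.1 CPM was within counting error of the 94.5 CPM in Leydig-like cells.

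Shares of cells with a UMI showed the same order of stages. With every cell thinned to 3000 UMIs, Zpbp2 was detected in 99.8% of WT and 98.4% of KO cells at P2, and in 51.9% and 44.7% at R4. Spaca3 went the other way, from 5.73% and 4.31% at P2 to 94.4% and 89.7% at R4. In Leydig-like cells thinned alike the shares were 12.8% and 6.49% for Zpbp2 and 12.8% and 4.95% for Spaca3. Unthinned, Spaca3 was seen in 99.8% of WT and 99.4% of KO cells at R4, where the median depths were 14900 and 14142 UMIs, and Izumo1, of low level, rose from 60.7% thinned to 94.7% unthinned in WT.

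A finer order of the cells was made from components of the integrated libraries, computed without the acrosome genes. Each cell was projected on the path through the centres of the clusters, whose own features included 7 of the 10 genes. Integration aligns the 2 libraries, so a shift in timing shared by many genes could be reduced before the fall is measured. On this order each of the 10 genes fell at nearly the same point in both libraries. Along this order, scaled from 0 at P1 to 1 at S4, the level dropped below 50% of its peak at 0.41 (Zpbp2) to 0.70 (Acrv1) in WT. In KO the same crossing lay at 0.41 (Zpbp2) to 0.71 (Spaca4). At bin 10 of the 20 bins of this order, mainly R4, WT levels of the second wave were still at 89.2% or more of their peaks. In that bin Zpbp2 was at 21.5%, Acrbp at 45.1%, Spesp1 at 51.8%, Zpbp at 78.5% and Acr at 90.4%. The same bin in KO gave 82.6 to 99.3% for the second wave and 18.1 to 84.3% for the first. The genes thus left in sequence, Zpbp2 first. KO minus WT differences ran from -0.024 (Spesp1) to 0.019 (Spaca4) with a median of -0.0026, 7 genes falling earlier and 3 later in KO. These differences are below the spacing of neighbouring bins in the middle of the order.

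**Figure D2:**
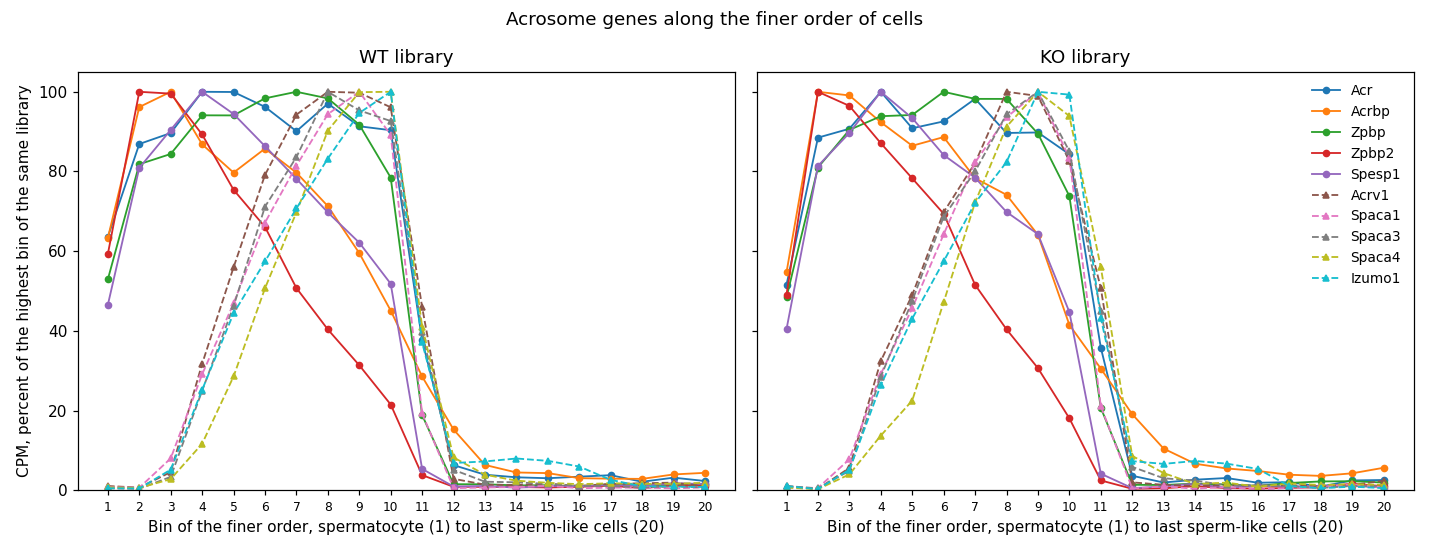
CPM of each gene as a percent of its own highest bin, in 20 bins of the finer order from spermatocytes (bin 1) to the last sperm-like cells (bin 20), for the WT library (left) and the KO library (right). Solid lines with circles are the 5 genes of the first wave, dashed lines with triangles the 5 of the second, and the second wave drops between bins 10 and 12, while Zpbp2, Acrbp and Spesp1 are at 21.5 to 51.8% of their WT peaks by bin 10.

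Between genotypes the 10 genes differed little. Summed over all spermatids they had 194625 UMIs in WT and 149139 in KO, or 3081 and 3241 CPM. None of the 10 was 1.5-fold or more lower in KO, against 4.30% of the 14701 genes with at least 100 UMIs in both libraries together, and none was 1.5-fold or more higher, against 18.1%. Single log2 ratios ran from -0.11 (Spaca4) to 0.26 (Spesp1), 4 of 10 genes being below 0 against 29.7% of all genes. The median was 0.06 for the 10 genes and 0.20 over all genes tested. The KO library held a smaller part of sperm-like cells, in which the 10 genes were near 0, and with each cluster given equal weight the median of the 10 was -0.15.

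Within the round spermatids (R1 to R5), where these genes were transcribed, the direction was mostly downward and the size small. The 10 genes together stood at 5068 CPM in WT and 4540 in KO, and 9 of 10 were lower in KO, against 45.3% of the 13915 genes tested. Their median log2 ratio was -0.17 and that of all genes 0.04. None was 1.5-fold or more lower (5.15% of all genes) or higher (11.7%). The lowest 3 ratios, of Spaca4 (-0.34), Spaca3 (-0.30) and Izumo1 (-0.26), belonged to the second wave, whose median was -0.26 beside -0.11 for the first, a difference that was not tested. The ranges overlapped, from -0.34 to -0.08 (Acrv1) in the second wave and from -0.24 (Zpbp) to 0.02 in the first.

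Stage by stage, every gene with enough UMIs was lower in KO at P1 and at R4. At P1 these were 7 of 7, against 47.5% of all genes tested there, with a median log2 ratio of -0.30 beside 0.02 for all genes. Of these 7, Acrv1 and Spaca3 lay below the Leydig-like level of the same library, so their ratios may be those of background. All 7 ran from -0.52 (Acrv1, on 69 and 48 UMIs, -1.09 to 0.03) to -0.09 (Spesp1). The 5 genes of the first wave alone ran from -0.41 to -0.09 with a median of -0.30, and their intervals lay below 0. The P1 cells differed in other genes too. Spermatogonia markers were higher in KO (251 against 137 CPM), as were Leydig markers (307 against 5.72) and mitochondrially encoded genes (23480 against 15162). Sperm markers were lower (2317 against 4122), while those of late spermatocytes were close (14212 against 14773). How far such differences enter the P1 ratios was not tested. At P2 the median was 0.00 with 5 of 10 below 0. At R4 all 10 were lower, against 53.4% of the genes tested there. Their ratios at R4 ran from -0.34 (Spaca3, Zpbp and Zpbp2) to -0.12 (Acrv1), with a median of -0.27 beside -0.03 for all genes. In the finer order bin 1, mainly P1, gave a median of -0.33 with 5 of 5 below 0, and bin 10, mainly R4, a median of -0.27 with all 10 below 0. Bin 11 gave a median of -0.06 with 7 below 0. Its main stage was R4, but its median order of 0.71 lay between those of R4 (0.60) and R5 (0.79). At R4 the late spermatocyte markers summed to 1306 CPM in WT and 1059 in KO and the sperm markers to 71360 and 74826. The 10 Leydig markers, 9 of them seen in WT and 10 in KO, summed to 19.5 and 161 CPM, and mitochondrially encoded genes at 2138 and 4907, the part of these differences in the result not having been tested. At R1, R2 and R3 the medians were -0.13, -0.17 and -0.13, with 8, 9 and 7 of the 10 below 0. At R3, the stage led by Slc39a12, the 10 genes summed to 6205 CPM in WT and 5823 in KO.

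No gene of the 10 was past 1.5-fold in either direction at P1, P2, R1, R2, R3 or R4, where 12.6%, 8.37%, 8.60%, 12.2%, 16.3% and 18.2% of all genes were. The 20 bins of the finer order held 3 such values, each of 1 gene and lower in KO. Spaca4 stood at -0.66 (-0.82 to -0.50) in bin 5, mainly R2, from 251 and 159 CPM, where 5.38% of all genes were 1.5-fold or more lower. The neighbouring bin 6 had none of the 10 past the fold. Zpbp2 stood at -0.67 (-0.95 to -0.39) in bin 11, mainly R4 (5.09% of all genes), from 62.7 and 39.5 CPM, below its Leydig-like level. Spaca4 in bin 14, mainly S1 (6.94%), stood at -0.93 from 21.2 and 11.1 CPM, likewise below its Leydig-like level. At R5, 2 of the 8 genes with enough UMIs were past it, Acr and Zpbp2, both at -0.71 and both lower in KO, against 16.7% of all genes. Zpbp2 was past it again at S1 (1 of 7 genes, 19.4% of all genes) and with Spaca4 at S2 (2 of 6, 20.1%), as was Acrv1 at S3 (1 of 3, 20.4%). At S4 only Acrbp had enough UMIs, and it was not past it (27.6% of all genes were). For Zpbp2 the levels behind these ratios were 6.79 to 14.1 CPM, under its Leydig-like level in both libraries, and may be background. The levels of Spaca4 at S2 and of Acrv1 at S3 were also under their Leydig-like levels in both libraries and may be background. Over sperm-like cells 1 of 10 genes (Zpbp2) was past 1.5-fold lower against 5.78% of all genes, and none higher against 20.7%. The Zpbp2 levels there, 12.7 CPM in WT and 8.34 CPM in KO, were likewise under its Leydig-like level.

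**Figure D3:**
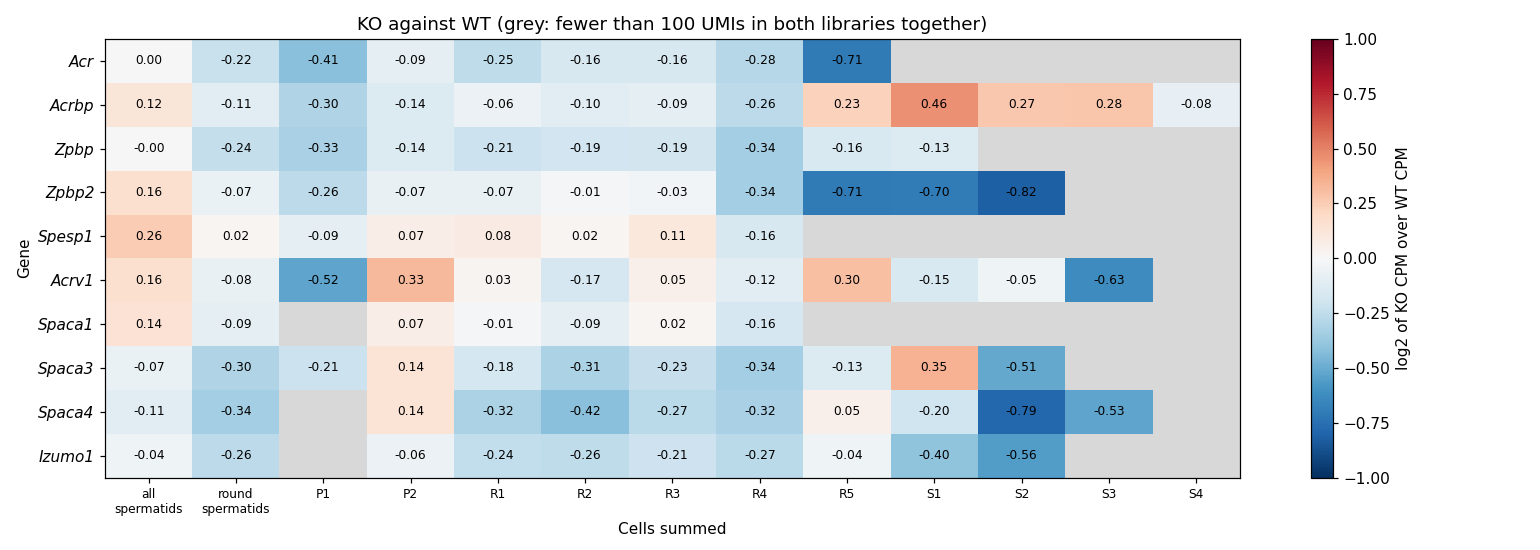
Log2 of the KO level over the WT level for each gene (rows) in all spermatids, in round spermatids and at each stage (columns), blue for lower in KO and red for higher. Grey cells had fewer than 100 UMIs in both libraries together. The R4 column is blue for all 10 genes, from -0.12 to -0.34, as is every cell of the P1 column with enough UMIs, from -0.09 to -0.52. At P1, Acrv1 (the -0.52) and Spaca3 lay below their Leydig-like levels. From P2 to R4 no ratio is farther from 0 than that of Spaca4 at R2, -0.42.

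Other genes of the acrosome were read from 5 lists by role, of 64 genes found in the tables, and the counts here are over all spermatids, where 18.1% of all genes tested were 1.5-fold or more higher and 4.30% lower. In the list of vesicle transport and acrosome biogenesis none of 13 genes with enough UMIs was past 1.5-fold, the lowest being Fam71f2 at -0.54 (-0.56 to -0.51) and the highest Gopc, a Golgi protein, at 0.56 (0.10 to 1.03) on 78 and 84 UMIs. Among acrosomal contents and membrane proteins 1 of 21 was higher, a share below that of all genes. It was Spaca5, a lysozyme-like relative of Spaca3, which had a ratio of 0.74 (0.68 to 0.81) from 61.1 and 102 CPM, and the lowest was Spaca7 at -0.07. In the perinuclear theca and acroplaxome list, the layer that fixes the acrosome to the nucleus, 2 of 10 were higher, close to the share over all genes. They were Cylc1, a cylicin, at 250.1 and 571 CPM (1.19, 1.16 to 1.22), and Actrt1, an actin-related protein, at 63.2 and 114 CPM (0.85, 0.79 to 0.91), while Actl9 was the lowest at -0.36 (-0.39 to -0.33). None of 11 gamete fusion genes was past 1.5-fold, with ratios from -0.19 (Tmem81) to 0.30 (Tmem95), and none of 3 exocytosis genes, with -0.15 for Vamp2 and 0.24 for Nsf. The list medians were 0.07, 0.18, 0.05, -0.01 and 0.05, beside 0.20 for all genes.

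In round spermatids alone the medians of these 5 lists were -0.02, -0.02, -0.00, -0.08 and -0.18, and Cylc1 (1.05) and Actrt1 (1.01) remained past 1.5-fold while Spaca5 stood at 0.51. All 3 genes lie on the X chromosome, and they were the only X-linked genes of the 5 lists with enough UMIs. The 10 acrosome and zona binding genes are all autosomal.

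In sperm-like cells none of the 10 genes was 1.5-fold or more higher. Acrbp, at 0.44 (0.28 to 0.60), and Spaca3, at 0.29 (0.05 to 0.53), were above 0 there. The wider lists differed among themselves. The mix of stages differed between the libraries, with 536 WT and 483 KO cells at S1 but 560 and 155 at S4. Transcripts that fade along these stages would thus weigh more in KO, and Actrt3, named below, was a leading gene of R5. The part of this mix in the ratios was not tested. Of the acrosomal contents and membrane list 7 of 18 were 1.5-fold or more higher in KO, against 20.7% of all genes, with a list median of 0.52 beside 0.16 for all genes. Of the theca list 3 of 9 were higher (median 0.24), of the gamete fusion list 1 of 8 (median 0.25), and of the vesicle transport list none of 11 (median 0.03). Genes named here were chosen after their values were seen. Above the Leydig-like level of the same library in both libraries were Prss55, Prss37 and Spaca7 of the first list, with ratios of 0.63, 0.84 and 0.68, and Cylc1, Actrt1 and Actrt3 of the second. Actrt3, an actin-related protein gene on an autosome, stood at 40.8 and 114 CPM (1.48, 1.36 to 1.59). The other 4 of the first list, Hyal5 (8.89 and 31.1 CPM, ratio 1.81), Calr (5.35 and 11.9 CPM, 1.15), Dkkl1 and Pcsk4, and Lypd4 of the fusion list, lay below the Leydig-like level in 1 or both libraries. So did 10 genes of the first list that were within 1.5-fold. The list median of 0.52 thus rests largely on levels that may be background.

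**Figure D4:**
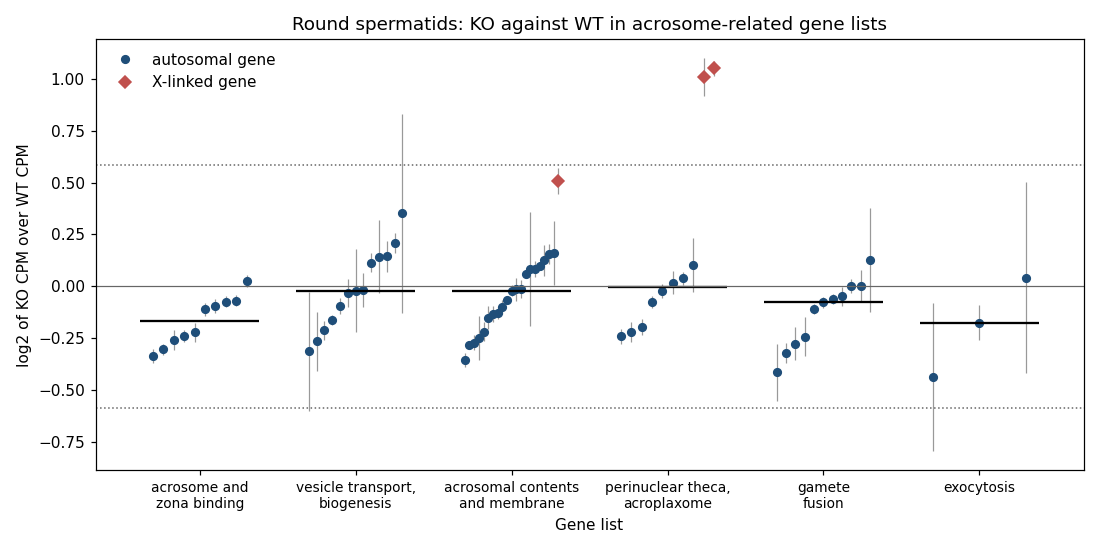
Log2 of the KO level over the WT level in round spermatids for the 10 genes (first column) and 5 wider lists, each point a gene with its exact 95% counting interval, circles for autosomal and diamonds for X-linked genes. Black bars are list medians and dotted lines mark 1.5-fold, and the 3 diamonds, at 0.51, 1.01 and 1.05, are the highest points of the picture.

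The genes whose profile over the 26 germ cell groups was most like the mean scaled profile of the 10 were 1700028P14Rik (Pearson's r 0.996), Tex21 (0.992), Tekt2 (0.990), Nupl2 (0.987) and Hist1h2bp (0.987). Tekt2 encodes a tektin of the sperm flagellum. The points share libraries and cell order, so the values describe likeness in timing only.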

How the data were processed

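Testis cells were captured on a microfluidic chip (1CellBio), libraries were made with a Singleron GEXSCOPE kit, and the authors deposited 1 table of UMI counts per genotype (whole-number counts per gene and barcode, not normalized). Per the sources, reads were trimmed with fastp 1, aligned with STAR 2.5.3a and counted with featureCounts 1.6.2. They name GRCh38 with Ensembl annotation while the deposited gene symbols are mouse, so the files' build is unsettled. Gene positions were matched by symbol from GENCODE M21 (GRCm38).

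The lowest barcode held 5142 (WT) or 4792 (KO) UMIs. Both libraries were integrated and clustered in Seurat 5.3.0 (R 4.3.3) with 2000 variable features, 30 components and resolution 0.3. Scrublet marked 243 WT and 348 KO barcodes as doublets, which were kept. Clusters were named from marker lists. The early, mid and late round spermatid lists were merged into 1 class after the data were seen, because late markers led the first round spermatid clusters. UMIs were summed per cluster and library. A gene was called past the fold at 1.5-fold or more with at least 100 UMIs in both libraries together. With 1 library per genotype no test was run. The script was tested on simulated counts.

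The 10 genes, the lists and the alternatives were chosen with earlier results of these data known. Besides the 10 genes, the text names from each list the genes with the highest and lowest ratio in all spermatids and any past 1.5-fold there, the 5 genes of most like profile (at least 1000 UMIs, log2 of CPM plus 10), and markers. Promoter windows came from RefSeq (GRCm38.p6), and the motifs searched were chosen after the levels were seen.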

Additional observations from a re-analysis of the deposited data

How the results depend on the processing

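Under every alternative tried, no gene of the 10 was 1.5-fold or more higher or lower in KO in all spermatids or in round spermatids. The median log2 ratio over all spermatids, 0.06, became 0.15 with cells thinned to 3000 UMIs, -0.15 with equal weight per cluster, and, in 2 alternatives chosen after seeing the data, -0.14 with equal weight per bin of the finer order and -0.14 relative to the median of all genes. In round spermatids the median of -0.17 became -0.11 without integration of the libraries. In sperm-like cells, where counts were low, the median of -0.19 became 1.15 without integration, and the number of genes 1.5-fold or more higher went from 0 to 8. That clustering counted the Fam71b cluster among the sperm-like cells, and the cause of the change was not tested. The number there 1.5-fold or more lower, 1, became 0 with thinned cells, with doublets removed, with equal weight per cluster, with equal weight per bin and at a fold of 2, and 2 when clustered without the acrosome genes and relative to the median of all genes. Of those 8 genes, 6 had been below 0 with integration, among them Acrv1 (-0.14, then 2.19), Spaca1 (-0.32, then 2.04) and Acr (-0.56, then 0.80). Zpbp2, past the fold downward, stayed below 0 under each alternative. Diffusion pseudotime was not used as the finer order, since it placed sperm-like cells between spermatocytes and round spermatids. No paired analysis was possible because each genotype had 1 library.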

Other observations

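The 3 X-linked acrosome genes that were higher in KO had company on their chromosome. In round spermatids, 374 of 502 X-linked genes with at least 100 UMIs (74.5%) were 1.5-fold or more higher in KO and 2 were lower, with a median log2 ratio of 0.88. On the autosomes 1123 of 12933 genes (8.68%) were higher and 677 (5.23%) lower, with a median of 0.02. The X-linked genes together took 18244 CPM in WT and 32626 CPM in KO. Genes of the Y chromosome were on the same side, 95 of 162 being higher with a median of 0.66, though many belong to multicopy families whose reads could not be assigned with certainty. The X-linked median was already above 0 in spermatocytes, at 0.84 at P1 (17 genes) and 0.47 at P2 (71 genes). It stood at 0.37 at R1, the lowest of the stages, 0.64 at R2, 0.86 at R3, 1.03 at R4 and 1.13 at R5. In the 4 sperm-like stages it stood at 1.07 to 1.15. The autosomal median stayed between -0.05 and 0.16 over all these stages.

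Cylc1, the cylicin gene of the perinuclear theca, was likewise higher in KO from R1 on. It stood at 81.2 CPM in WT and 114 in KO at R1, at 325 and 743 at R4, at 555 and 1080 at R5 and at 487 and 1043 at S1. Actrt1 stood at 13.9 and 19.6 CPM at R1 and at 87.8 and 178 at S1. Spaca5 stood at 60.7 and 79.9 CPM at R1 and at 141 and 222 at R3. There is 1 library per genotype, so none of these differences has a replicate check.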
